A study of Macaca fascicularis with 21 samples.

Results

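In cultured embryos of the cynomolgus monkey (Macaca fascicularis), the earliest cells annotated as amnion were compared with the trophoblast of the same embryos. The members were chosen by the deposited cell annotation. They were the cells named E-AM (read here as early amnion) and the cells named TE and derivatives (TE, trophoblast) in embryos of days 12 to 14 that held at least 3 cells of each. The rule was met by 4 of the 21 embryos and 149 of the 1453 cells of the series, namely by 20 of its 33 E-AM cells and 129 of its 380 TE cells. The embryos were day 12 replicates 1 and 2 and day 14 replicates 2 and 4, and every list of 4 values below follows that order. They gave 6, 7, 3 and 4 E-AM cells and 45, 53, 15 and 16 TE cells. Just outside the rule stood 3 embryos with 2 E-AM cells each (day 12 replicate 5 and day 13 replicates 1 and 2), and day 13 replicate 3 with 3 E-AM cells and 1 TE cell.

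No label names a genotype or a treatment other than the culture, and all embryos of the series were grown in vitro from blastocysts, each in its own well on Matrigel, a gel of basement membrane proteins, in medium with rising serum. Per the labels' protocols, tissue outside the disc was cut away before single cells were picked, so the TE cells are those that stayed with the disc and the shares of types are those of picked cells. RNA was read at its 3′ end. The day of day 12 replicate 1 stands under a culture stage label and that of the other 3 embryos under a developmental stage label. The sources used here do not say whether both kinds of label share a starting day.

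The amnion is a thin epithelium that closes over the epiblast and forms the inner wall of the amniotic cavity. In primates it arises from epiblast cells soon after implantation, and bone morphogenetic protein (BMP) signalling, ISL1 and AP-2 factors are known parts of its programme. Trophoblast is the outer lineage set aside at the blastocyst stage. It forms the placenta, where cytotrophoblast cells fuse into a hormone-secreting syncytium under the control of GCM1, or invade the uterine wall. Both tissues form epithelia that share factors such as TFAP2A, GATA3 and keratins. The pair is therefore often hard to tell apart by single markers.

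Counts were summed per embryo and type, which gave 8 sums. The E-AM sums held 292659, 233718, 122318 and 1050327 counts and the TE sums 4075998, 4625056, 1872264 and 3029234. The median E-AM cell held 31528.5 counts and 6570 genes, against 67023 counts and 7032 genes for the median TE cell, so low genes were less well resolved in E-AM. No label names a sequencing batch, and the label type was the only known split. The authors named the cells from these same values, so a marker that differs between the types is not independent evidence for their names. The labels name 1 embryo per sample, and p-values of the comparison of the types measure the spread between these 4 embryos.

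Levels are given as CPM, the counts of a sum scaled to a total of 1e6. A difference is E-AM minus TE on the log2 scale over 4 embryos, from edgeR's quasi-likelihood test with the embryo as a block. The value after ± is an approximate standard error, the size of the difference divided by the square root of the test's F. Genes whose p, adjusted over all genes tested by Benjamini and Hochberg's method, was under 0.05 count as called. Of 9973 genes tested, 1531 were called, or 15.4%. E-AM was higher for 588 of them (5.9%) and TE for 943 (9.46%). The counts of each list below are to be read beside these shares. Most called list members were named only if their sign was the same in every embryo. Such agreement between embryos, and the lack of overlap that often goes with it, is therefore no separate evidence. The median difference over all tested genes was -0.21, and 2788 genes had an unadjusted p under 0.05. Without a filter on low counts the E-AM-higher share of the calls was 26.8% in place of 38.4%, and the median over all genes moved to -0.74. The 3 embryos with developmental stage labels alone gave 1200 calls, 440 higher in E-AM and 760 higher in TE, and with 1 embryo under the culture stage label no value within that label could be had.

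**Figure D1:**
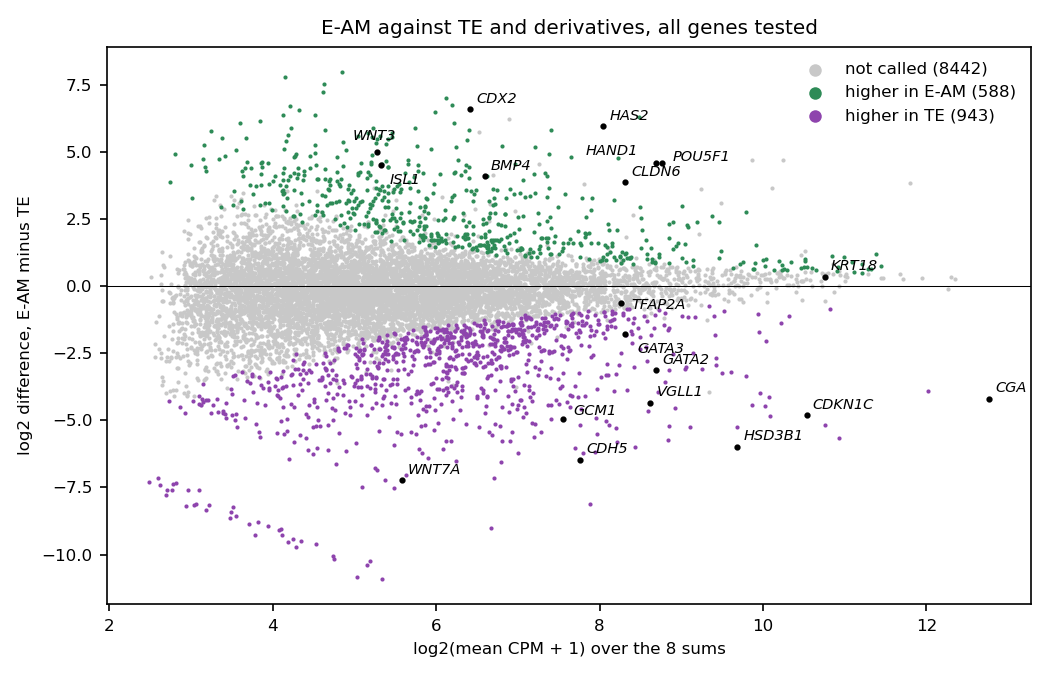
Difference between E-AM and TE (log2, vertical) against the mean level over the 8 sums (log2 of CPM + 1, horizontal) for the 9973 genes tested. Green points are the 588 genes called higher in E-AM, purple points the 943 called higher in TE, grey points were not called, and the sloping band at the lower left holds genes with no count in any E-AM sum.

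Of the 4 markers given with the comparison, ISL1 was higher in E-AM, CGA and GCM1 were higher in TE, and TFAP2A was not called. ISL1, a LIM homeobox factor of the amnion, stood at 75.2, 25.7, 89.9 and 109 CPM in E-AM and at 1.47, 1.73, 8.55 and 2.64 in TE. Every E-AM sum lay above every TE sum, with a difference of 4.51 ± 0.73 (adjusted p = 0.000184). GCM1, the factor that drives trophoblast fusion, stood at 6.83, 4.28, 16.4 and 21.9 CPM in E-AM and 392, 307, 311 and 431 in TE. Here every TE sum was above every E-AM sum, and the difference was -4.95 ± 0.45 (adjusted p = 1.92e-07). CGA, the alpha subunit of the glycoprotein hormones, reached 12194, 10497, 14504 and 15492 CPM in TE and 601, 1348, 548 and 675 in E-AM, again with no overlap (-4.19 ± 0.31, adjusted p = 3.09e-05). TFAP2A, an AP-2 factor used as a marker of amnion and of trophoblast, stood at 410.0, 179.7, 392 and 85.7 CPM in E-AM and 355, 265, 309.8 and 441 in TE. Its groups overlapped, E-AM was the higher one in 2 of 4 embryos, and the difference of -0.61 ± 0.40 was not called (adjusted p = 0.359). Without day 14 replicate 4 that difference was 0.03. In the epiblast of the same embryos (EPI, annotated postE-EPI) TFAP2A stood at 5.17 to 104 CPM, below every TE sum and below 3 of the 4 E-AM sums.

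**Figure D2:**
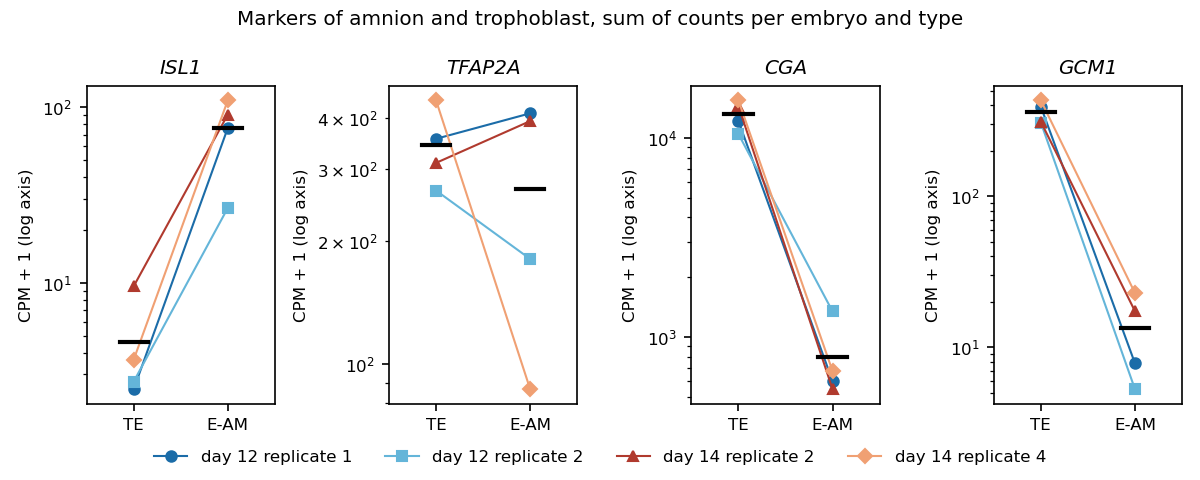
Levels of ISL1, TFAP2A, CGA and GCM1 in the TE and E-AM sums (CPM + 1, log axis), with a line joining the 2 sums of each embryo and a black bar at the arithmetic mean of 4 embryos. ISL1 rises and CGA and GCM1 fall from TE to E-AM in all 4 embryos, whereas the TFAP2A lines cross.

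In single cells, a count of ISL1 was found in 12 of 20 E-AM cells, 19 of 129 TE cells and 4 of 118 EPI cells. TFAP2B, an AP-2 factor expressed in amnion, had a count in 12 of 20 E-AM cells and 3 of 129 TE cells, and 17 of 20 E-AM cells against 22 of 129 TE cells had a count of ISL1 or TFAP2B. A count of GCM1 occurred in 7 of 20 E-AM cells, which is no larger a share than the 47 of 118 in EPI (median depth 48319.5 counts), and in 123 of 129 TE cells. CGA was counted in every cell of every type in these embryos. Its median per cell was 913 CPM in E-AM, 966 in EPI, 764 in extraembryonic mesenchyme (EXMC) and 7670 in TE. The E-AM level of CGA was thus no higher than that of EPI, a type not known for placental hormones, while 42 of 129 TE cells were below the highest E-AM cell.

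Of the 18 amnion genes of the list, 13 were tested, 5 were higher in E-AM, 1 was higher in TE and 7 were not called, with a median difference of 3.28. HAND1, a basic helix-loop-helix factor, stood at 1538, 509, 842 and 301 CPM in E-AM and 26.7, 27.9, 31.0 and 21.8 in TE. The groups did not overlap (4.59 ± 0.37, adjusted p = 3.66e-08), and HAND1 was above every EPI sum too (1.41 to 40.6), whereas EXMC reached 123 to 339.8. All 20 E-AM cells had a HAND1 count, and 0 of 129 TE cells exceeded the E-AM median. TFAP2B was at 116, 55.6, 40.9 and 9.52 CPM in E-AM and 0.736, 0, 0 and 0 in TE. The pooled E-AM sums held 62 counts and the TE sums 3, a ratio of CPM of 165 with a 95% exact interval of 54.1 to 824 for counting error only. BMP4, the ligand, and BAMBI, a decoy receptor that BMP induces, were also called and are described with their pathway below. DLX5, a homeobox gene of the amnion list, went the other way, at 3.42, 4.28, 0 and 47.6 CPM in E-AM and 58.1, 46.9, 85.5 and 68.7 in TE. Its groups overlapped through day 14 replicate 4 (-2.61 ± 0.78, adjusted p = 0.025), and the call was lost without any 1 of the other 3 embryos and without the embryo block. MSX2, a BMP-induced homeobox gene, was at 113, 68.5, 0 and 37.1 CPM in E-AM and 107, 87.1, 39.0 and 44.6 in TE and was not called (-0.57 ± 0.55, adjusted p = 0.558). GABRP, a GABA receptor subunit found in human amnion cells, was at 37.6, 4.28, 57.2 and 25.7 CPM against 0.245, 4.11, 9.08 and 7.92, overlapped in its groups and was not called (2.55 ± 1.05, adjusted p = 0.111). VTCN1, WNT6, LMO2, MEIS1 and KRT17 were too low to be tested, and LMO2 had no count in E-AM.

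Trophoblast transcription factors were mostly higher in TE, at 12 of the 23 tested of 26, while 2 were higher in E-AM and 9 were not called (median -1.74). VGLL1, a cofactor of TEAD proteins, stood at 835, 934, 549 and 658 CPM in TE and 23.9, 72.7, 32.7 and 32.4 in E-AM. No TE sum came near an E-AM sum (-4.34 ± 0.33, adjusted p = 1.34e-08). GATA2, a zinc finger factor, was at 649, 437, 793 and 1071 CPM in TE and 68.3, 103, 40.9 and 128 in E-AM (-3.13 ± 0.33, adjusted p = 1.36e-06). Its relative GATA3 reached 574, 349, 504 and 428 CPM in TE and 314, 205, 123 and 38.1 in E-AM, without overlap. The GATA3 difference was smaller (-1.79 ± 0.43, adjusted p = 0.009) and its call was lost without day 14 replicate 2, with at least 5 cells of each type and with counts thinned to equal totals. Both types were above EPI, which had 9.11 to 36.3 CPM. SP6, a zinc finger factor, and PPARG, a nuclear receptor needed for placental development, differed by -3.80 ± 0.56 (adjusted p = 6.87e-05) and -2.88 ± 0.60 (adjusted p = 0.00222). Also higher in TE were DLX3 (-3.26), DLX6 (-3.45), OVOL1 (-2.75), EPAS1 (-1.79), ARID3A (-1.74) and GRHL1 (-1.58), and the DLX6 call was lost without day 12 replicate 1 and without day 14 replicate 4. Calls were also lost for ARID3A without day 12 replicate 2, for EPAS1 without day 14 replicate 4 and for GRHL1 without either day 14 embryo.

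CDX2, the homeobox factor that marks the trophectoderm of the blastocyst, was higher in E-AM than in TE. It stood at 229, 145, 253 and 38.1 CPM in E-AM and 0.491, 1.08, 5.88 and 0.660 in TE. The groups were far apart (6.59 ± 0.66, adjusted p = 6.29e-07), and a count was found in 17 of 20 E-AM cells and 12 of 129 TE cells. E-Gast (read here as early gastrulating cells), at 39.2 to 144 CPM with a count in 15 of 24 cells, overlapped E-AM. EPI (0.176 to 71.4 CPM), EXMC (0 to 44.2) and the 1 sum of visceral and yolk sac endoderm (VE/YE, 60.7) reached into the E-AM range too. The other factor of the trophoblast list on the E-AM side was HAND1. TFAP2C, an AP-2 factor of trophoblast and germ cells, was at 140.1, 154, 32.7 and 37.1 CPM in E-AM and 108, 76.3, 202 and 210.3 in TE and was not called (-0.85 ± 0.64, adjusted p = 0.437). TEAD4, the partner of VGLL1, was at 64.9, 85.6, 98.1 and 52.4 CPM in E-AM against 20.1, 17.7, 37.4 and 29.7 in TE. Those groups did not overlap, yet the difference missed the threshold (1.48 ± 0.53, adjusted p = 0.066) and passed it under 4 of the other settings. TBX3, a T-box factor, overlapped between the types and was not called (-0.85 ± 0.37, adjusted p = 0.132).

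**Figure D3:**
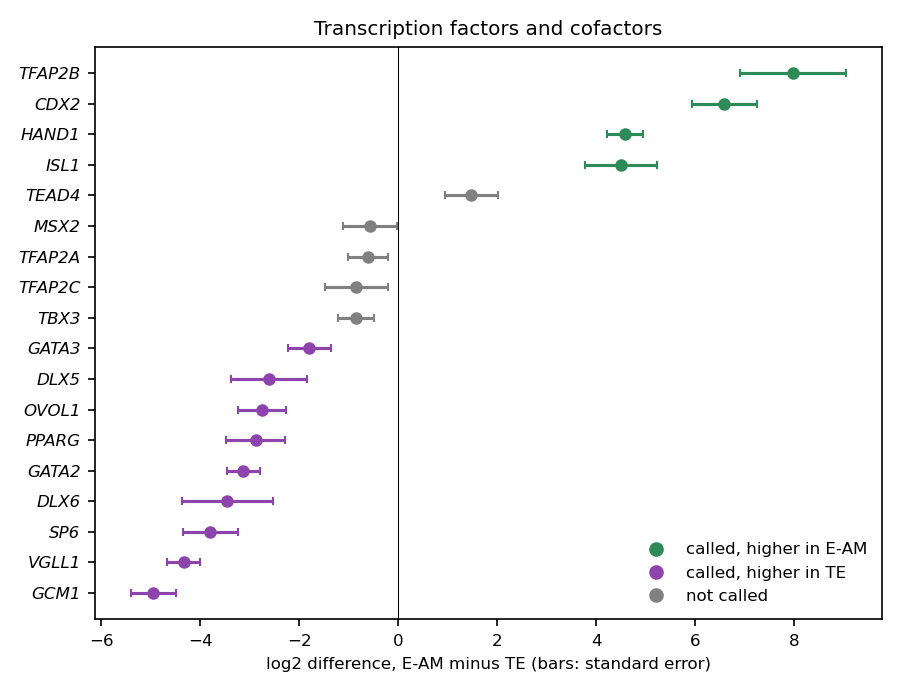
Difference between E-AM and TE (log2, horizontal, bars are approximate standard errors, 4 embryos) for 18 transcription factors and cofactors. TFAP2B, CDX2, HAND1 and ISL1 lie on the E-AM side, 5 factors including TFAP2A and TFAP2C were not called, and 9 from GATA3 to GCM1 lie on the TE side.

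Hormone and steroid genes were higher in TE for 10 of the 12 tested of 20, and none was higher in E-AM (median -5.10). HSD3B1, the enzyme that completes progesterone synthesis, stood at 1175, 818, 2313 and 2166 CPM in TE and 30.8, 21.4, 40.9 and 17.1 in E-AM. All TE sums were above all E-AM sums (-5.98 ± 0.34, adjusted p = 3.57e-10). CYP11A1, which makes pregnenolone from cholesterol, was at 859, 709, 1049.5 and 1094 CPM in TE and 64.9, 244, 147 and 81.9 in E-AM (-3.01 ± 0.35, adjusted p = 7.36e-06). In EPI it was at 99.9, 56.0, 44.0 and 37.6 CPM, so E-AM was above EPI in each embryo but day 12 replicate 1. NPPA, the atrial natriuretic peptide, was at 1469.6, 639.8, 2027 and 2266 CPM in TE and 58.1, 30.0, 57.2 and 29.5 in E-AM (-5.24 ± 0.33, adjusted p = 1.41e-09). INSL4, a placental peptide of the insulin family, was at 34.6, 270.5, 549 and 1025 CPM in TE and 0, 4.28, 0 and 2.86 in E-AM. LEP, the hormone leptin, was at 38.3, 237, 1152 and 1286 CPM in TE and 3.42, 8.56, 8.18 and 17.1 in E-AM. For both genes the TE sums of day 14 were above those of day 12, and the differences were -8.13 ± 0.61 (adjusted p = 1.14e-08) and -5.97 ± 0.47 (adjusted p = 2.53e-08). GDF15, a stress-responsive hormone of the placenta, was similar, at 44.9, 50.2, 328 and 505 CPM in TE and 0, 0, 16.4 and 7.62 in E-AM (-5.77 ± 0.63, adjusted p = 1.74e-06). ADM, the vessel-dilating peptide adrenomedullin, had 1 count in all E-AM sums and 1401 in TE, a ratio of 175 with a 95% exact interval of 31.4 to 6917. LHB, a gonadotropin beta subunit that may share reads with its near copies, and PGF, a growth factor for placental vessels, differed by -4.96 ± 0.72 and -4.25 ± 0.45 (adjusted p = 6.18e-05 and 1.45e-06).

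**Figure D4:**
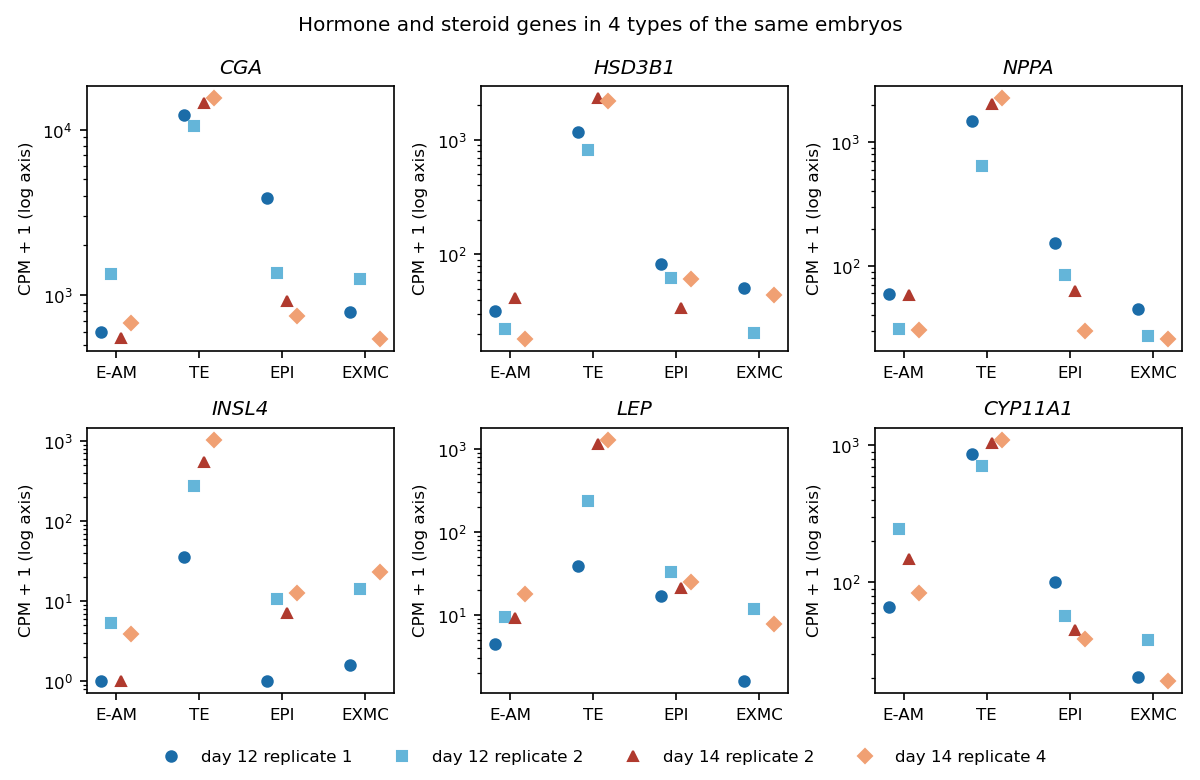
Levels of 6 hormone and steroid genes (CPM + 1, log axis) in the E-AM, TE, EPI and EXMC sums of the same embryos, with 1 point per embryo and no EXMC point for day 14 replicate 2, which held 2 EXMC cells. TE is the highest type for each gene in each embryo, and the E-AM range overlaps that of EPI. For CYP11A1, E-AM lies above EPI in each embryo but day 12 replicate 1.

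Among genes of cell fusion and the syncytium, 6 of the 11 tested of 16 were higher in TE, 1 was higher in E-AM and 4 were not called (median -2.69). HOPX, a homeodomain protein without DNA binding, stood at 968, 891, 641 and 1078 CPM in TE and 20.5, 30.0, 49.1 and 17.1 in E-AM (-5.19 ± 0.37, adjusted p = 6.60e-09). ERVFRD-1, the retroviral envelope gene for syncytin-2, was at 77.8, 115, 51.3 and 77.6 CPM against 3.42, 4.28, 0 and 15.2 (-3.64 ± 0.70, adjusted p = 0.00102). Neither pair of groups overlapped. MFSD2A, the receptor of syncytin-2, was also called higher in TE (-4.37). It stood at 2.94, 11.5, 127 and 145 CPM in TE and 0, 12.8, 0 and 0.952 in E-AM. Its groups overlapped, E-AM was the higher type in day 12 replicate 2, and its TE level was high at day 14 alone. The call was kept in 1 of the 4 fits without 1 embryo, that without day 12 replicate 2. SDC1, a surface proteoglycan of the syncytium, was called (-2.69 ± 0.79, adjusted p = 0.0237), and the call was lost without day 12 replicate 1, day 12 replicate 2 or day 14 replicate 4. GJA1, the gap junction protein connexin 43, stood out on the other side, at 236, 603, 98.1 and 450.3 CPM in E-AM and 14.5, 14.9, 50.2 and 49.8 in TE. The difference was 3.44 ± 0.65 (adjusted p = 0.0042), and the EPI range of GJA1, 361 to 688, overlapped that of E-AM.

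Genes of invasive trophoblast were higher in TE for 6 of the 11 tested of 19, with none higher in E-AM (median -3.35). MMP2, a matrix metalloprotease, was at 1079, 1187, 2224 and 1955 CPM in TE and 161, 231, 139 and 110.4 in E-AM (-3.35 ± 0.32, adjusted p = 1.45e-06). CCR7, a chemokine receptor, had 3 counts in the E-AM sums and 3058 in TE, a ratio of 127 (95% exact interval 43.5 to 618). NOTUM, an enzyme that inactivates WNT proteins, was at 44.2, 65.5, 65.7 and 54.5 CPM in TE and 3.42, 4.28, 0 and 1.90 in E-AM (-4.49 ± 0.84, adjusted p = 0.000802). All 3 were separated without overlap. HTRA1, a secreted serine protease, had counts in 1 E-AM sum, day 14 replicate 4, at 19.99 CPM, against 53.4 to 71.0 in TE. CCR1, another chemokine receptor, lost its call without day 12 replicate 1, day 14 replicate 2 or day 14 replicate 4.

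Pluripotency genes leaned to E-AM, with 11 of the 20 tested of 30 higher there, 3 higher in TE and 6 not called (median 2.78). NODAL, the ligand that sustains the epiblast, stood at 10.3, 8.56, 49.1 and 71.4 CPM in E-AM and 0.245, 0, 1.07 and 0.660 in TE (5.90 ± 1.04, adjusted p = 0.000436), and EPI, at 7.87 to 33.6, overlapped E-AM. SALL4, a zinc finger factor, was at 144, 68.5, 114 and 97.1 CPM against 16.7, 5.19, 10.7 and 11.9 (3.25 ± 0.52, adjusted p = 0.000167), and its EPI range of 61.6 to 114 overlapped that of E-AM. DNMT3B, a de novo DNA methyltransferase, was at 335, 355, 343 and 409 CPM in E-AM and 79.7, 63.6, 134 and 86.8 in TE (2.00 ± 0.33, adjusted p = 0.000251). E-AM thus stood between TE and EPI for DNMT3B, since EPI reached 935 to 1587 CPM. DPPA2 (3.64), DPPA4 (3.56), DPPA5 (3.66), GDF3 (4.85), CRABP1 (4.74), SFRP2 (2.91), L1TD1 (1.60) and LIN28A (1.05) were the other members higher in E-AM. CRABP1 lost its call without day 12 replicate 1 or day 12 replicate 2, L1TD1 without day 14 replicate 4, DPPA4 without the embryo block and LIN28A in 3 of the 4 fits without 1 embryo, being kept in that without day 14 replicate 2.

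The core factors of pluripotency differed among themselves. POU5F1 stood at 591, 1224, 744 and 696 CPM in E-AM and 5.64, 17.1, 116 and 71.0 in TE. The groups were clear of each other and E-AM overlapped the EPI range of 704 to 994, but the difference just missed the threshold (4.59 ± 1.04, adjusted p = 0.0572). It passed in 10 of 14 other settings, among them DESeq2 and each of the fits without day 12 replicate 1 and without day 14 replicate 2. NANOG was at 95.7, 34.2, 0 and 114 CPM in E-AM and 0.245, 0.216, 28.3 and 20.5 in TE, overlapped and was not called (3.66 ± 1.97, adjusted p = 0.302). SOX2 was low in both types, at 3.42, 4.28, 8.18 and 8.57 CPM in E-AM and 0.245, 1.51, 9.61 and 6.93 in TE, against 105 to 199.8 in EPI. All 4 E-AM sums of SOX2 were therefore far below every EPI sum, while its difference from TE was not called (0.81 ± 1.08, adjusted p = 0.684). Higher in TE were LIN28B, an RNA-binding protein, at 658, 497, 644 and 833 CPM against 126, 167, 32.7 and 87.6 (-2.78 ± 0.37, adjusted p = 3.60e-05), ETV4 (-2.36) and TFCP2L1 (-3.60). The ETV4 call was lost without day 14 replicate 4 and the TFCP2L1 call without day 12 replicate 2 or day 14 replicate 2.

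In the BMP pathway the ligand BMP4 and the targets ID1, ID2 and BAMBI were higher in E-AM. Of 30 members 20 were tested, of which 4 were higher in E-AM, 2 in TE and 14 were not called (median 0.29). The shares over all tested genes were 5.9% in E-AM and 9.46% in TE. BMP4 stood at 109, 124, 164 and 316 CPM in E-AM and 6.62, 3.46, 7.48 and 34.3 in TE. Every E-AM sum exceeded every TE sum (4.10 ± 0.49, adjusted p = 5.30e-06), EPI had 2.27 to 15.3 CPM, and EXMC overlapped E-AM at 33.5 to 175. ID1, a helix-loop-helix inhibitor induced by BMP, was at 407, 471, 433 and 279.9 CPM in E-AM and 46.1, 40.2, 53.4 and 21.5 in TE (3.30 ± 0.34, adjusted p = 1.02e-06), with EPI at 112 to 333. BAMBI was at 539.9, 479, 417 and 293 CPM against 56.9, 23.1, 38.5 and 59.1 (3.28 ± 0.37, adjusted p = 3.16e-06), and EXMC reached 481 to 611. ID2 followed with a smaller difference (1.57 ± 0.29, adjusted p = 0.000679), which was not called with EPI sums in the fit (1.54, adjusted p = 0.196). ID3 was at 424, 595, 335 and 379 CPM in E-AM and 249, 357, 729 and 524 in TE and was not called (-0.05 ± 0.33, adjusted p = 0.941). FST, the activin and BMP inhibitor follistatin, was at 71.9, 54.3, 256 and 204 CPM in TE and 3.42, 21.4, 24.5 and 95.2 in E-AM. Its groups overlapped and its call (-2.23 ± 0.54, adjusted p = 0.00632) was lost without day 14 replicate 2 and without the embryo block. BMPR2, the type II receptor, was not called (0.65 ± 0.42, adjusted p = 0.343). BMP2, NOG and CHRD had no count in any E-AM sum.

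WNT ligands were split between the types. Of 38 members 14 were tested, of which 4 were higher in E-AM, 4 in TE and 6 were not called (median -0.42). The shares over all tested genes were 5.9% in E-AM and 9.46% in TE. WNT3 stood at 99.1, 81.3, 65.4 and 48.6 CPM in E-AM and 2.45, 1.08, 3.20 and 2.31 in TE (4.99 ± 0.74, adjusted p = 7.02e-05), and WNT5B at 129.8, 94.1, 24.5 and 86.6 against 3.19, 0, 2.67 and 1.98 (5.56 ± 0.89, adjusted p = 0.000198). The reverse held for WNT3A, at 160.5, 188, 311 and 244 CPM in TE and 3.42, 25.7, 0 and 7.62 in E-AM (-4.68 ± 0.58, adjusted p = 8.90e-06). WNT7A had 1 count in the E-AM sums and 1316 in TE, a ratio of 164 (95% exact interval 29.5 to 6497). None of the 4 ligands overlapped between the types. EPI overlapped E-AM for WNT5B (12.6 to 116 CPM) and lay below it for WNT3 (0 to 19.4). Downstream, TCF7L1, a factor that represses WNT targets, was higher in E-AM (3.20 ± 0.58, adjusted p = 0.000617), and TCF7L2 (-1.88) and the receptor LGR4 (-1.77) were higher in TE, LGR4 with no call without day 14 replicate 4. SFRP2, a secreted WNT inhibitor, was higher in E-AM (2.91 ± 0.69, adjusted p = 0.00583), with overlapping groups and no call without the embryo block.

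Of 12 keratins 7 were tested, 3 were higher in TE, none was higher in E-AM and 4 were not called (median -2.43). Over all tested genes 9.46% were higher in TE. KRT7, a simple epithelial keratin, stood at 109, 170.2, 446 and 354 CPM in TE and 0, 8.56, 24.5 and 46.7 in E-AM (-3.98 ± 0.50, adjusted p = 1.14e-05). KRT23 was at 864, 555, 439 and 423 CPM in TE and 27.3, 38.5, 0 and 4.76 in E-AM (-5.29 ± 0.48, adjusted p = 5.17e-07), and KRT10 differed by -2.43 ± 0.43 (adjusted p = 0.000487). These 3 did not overlap between the types, but called keratins were named only if their sign was the same in every embryo. KRT19, by contrast, was at 1264, 860.0, 760.3 and 495 CPM in E-AM and 881, 803, 788 and 598 in TE (0.02 ± 0.23, adjusted p = 0.965). KRT8 and KRT18, which pair into the filaments of simple epithelia, were not called over the 4 embryos (0.19 ± 0.33 and 0.36 ± 0.43, adjusted p = 0.771 and 0.655), and their day difference is given below. All 3 were well above EPI, where KRT18 had 175 to 347 CPM.

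Among 25 junction genes, 3 of the 23 tested were higher in E-AM, 3 were higher in TE and 17 were not called (median 0.42). Over all tested genes 5.9% were higher in E-AM and 9.46% in TE. CLDN6, a tight junction claudin of early embryonic epithelia, stood at 591, 436, 1006 and 328 CPM in E-AM and 29.7, 23.1, 105 and 21.8 in TE (3.88 ± 0.33, adjusted p = 6.76e-08). EPCAM, an epithelial adhesion molecule, was at 482, 454, 359.7 and 524 CPM against 66.5, 73.9, 147 and 82.2 (2.33 ± 0.34, adjusted p = 6.71e-05), and CXADR, a tight junction receptor, differed by 3.49 ± 0.55 (adjusted p = 0.000204). EPI overlapped E-AM for CLDN6 (248 to 420 CPM) and CXADR (269 to 357) and lay below it for EPCAM (197 to 320). CDH5, the cadherin of vascular endothelium, was the strongest TE gene of this list, at 362, 547, 302 and 494 CPM in TE and 3.42, 25.7, 0 and 0.952 in E-AM. The lowest TE sum of CDH5 was above the highest E-AM sum (-6.46 ± 0.62, adjusted p = 1.54e-06). PERP and DSG2 of desmosomes had small differences (-1.44 and -1.31). The DSG2 call was lost in all 4 fits without 1 embryo, and the PERP call in those without day 12 replicate 1, day 14 replicate 2 or day 14 replicate 4.

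Of 32 matrix and integrin genes 23 were tested, 3 were higher in E-AM, 6 in TE and 14 were not called (median -0.60). Over all tested genes the shares were 5.9% in E-AM and 9.46% in TE. The laminin chains LAMA3 and LAMB2 were higher in E-AM, LAMB2 at 23.9, 47.1, 16.4 and 35.2 CPM against 1.23, 1.08, 5.34 and 1.65 (3.96 ± 0.97, adjusted p = 0.00707) and LAMA3 by 4.95 ± 1.15 (adjusted p = 0.00496). Without day 12 replicate 2 LAMB2 was not called. EPI overlapped E-AM for LAMB2 (13.5 to 56.8 CPM) and lay below it for LAMA3 (1.40 to 3.69). FN1, fibronectin, stood at 403, 813, 1234 and 1359 CPM in E-AM and 127, 61.6, 144 and 524 in TE. Its groups overlapped, E-AM was higher in 4 of 4 embryos (2.40 ± 0.36, adjusted p = 0.000249), and the call was lost without the embryo block and with EPI sums in the fit. NID1, a linker of basement membranes, had 2 counts in E-AM and 761 in TE, a ratio of 47.5 (95% exact interval 13.1 to 393). ITGAV, an integrin chain, was at 228, 183, 128 and 192 CPM in TE and 10.3, 17.1, 8.18 and 40.9 in E-AM (-3.32 ± 0.50, adjusted p = 9.35e-05), and ITGA2 (-3.66), ITGB4 (-2.54), LAMA1 (-2.38) and ITGA3 (-2.03) were also higher in TE. The ITGB4 call was lost in all 4 fits without 1 embryo and the ITGA2 call without day 14 replicate 4, and those of LAMA1 and ITGA3 without either day 14 embryo. ITGB1, the common partner chain, was not called (-0.43 ± 0.25, adjusted p = 0.274).

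Placental transporters were higher in TE for 10 of the 19 tested of 24, and 1 was higher in E-AM (median -1.69). TFRC, the receptor that takes up iron-loaded transferrin, stood at 727, 561, 549 and 582 CPM in TE and 44.4, 38.5, 8.18 and 76.2 in E-AM (-3.88 ± 0.38, adjusted p = 4.94e-07). SLC40A1, the iron exporter ferroportin, was at 457, 248, 131 and 212 CPM against 3.42, 17.1, 8.18 and 10.5 (-4.72 ± 0.52, adjusted p = 2.27e-06). The iron genes did not overlap between the types. For folate, SLC19A1, the reduced folate carrier, had no count in E-AM and 463 in TE, so that TE was at least 19.3-fold higher against a floor of 3 counts in the pooled E-AM sums. FOLR1, a folate receptor, differed by -3.79 ± 0.78 (adjusted p = 0.00328), and LRP2, the endocytic receptor megalin, by -3.72 ± 0.48 (adjusted p = 1.40e-05). SLC2A1, the glucose transporter GLUT1, was at 1477, 1372, 1386 and 1498 CPM in TE and 321, 308, 1145 and 384 in E-AM (-1.71 ± 0.28, adjusted p = 0.00031), with day 14 replicate 2 the highest E-AM sum. FABP3, a fatty acid binding protein, was the 1 member higher in E-AM, at 137, 158, 65.4 and 253 CPM against 2.21, 2.59, 19.8 and 32.7 (4.04 ± 0.74, adjusted p = 0.00161).

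Of 20 imprinted genes 11 were tested, 6 were higher in TE, 2 in E-AM and 3 were not called (median -3.02). Over all tested genes 9.46% were higher in TE and 5.9% in E-AM. CDKN1C, a cell cycle inhibitor expressed from the maternal allele, stood at 2394, 1919, 3861 and 3239.8 CPM in TE and 61.5, 111, 65.4 and 190.4 in E-AM (-4.79 ± 0.30, adjusted p = 6.93e-09). PHLDA2, a maternally expressed brake on placental growth, was at 914, 638, 858 and 738 CPM against 51.3, 85.6, 16.4 and 57.1 (-3.92 ± 0.36, adjusted p = 2.19e-07). Also higher in TE were 2 paternally expressed genes, IGF2, the growth factor, at 319.9, 287, 624 and 277 CPM in TE and 34.2, 0, 8.18 and 39.0 in E-AM (-4.06 ± 0.60, adjusted p = 0.000406) and MEST by -3.24 ± 0.33 (adjusted p = 3.16e-06). PEG10, a retrotransposon-derived gene, was at 307, 378, 4.27 and 9.90 CPM in TE and 3.42, 42.8, 0 and 7.62 in E-AM. Its TE level was high at day 12 alone, and the call (-3.02 ± 0.78, adjusted p = 0.0146) was lost without either day 12 embryo and without the embryo block. ZFAT differed by -4.86 ± 0.65 (adjusted p = 6.00e-05), and GNAS (1.20) and SNRPN (2.06), also a paternally expressed gene, were higher in E-AM. Without day 12 replicate 2 GNAS was not called, and the SNRPN call held in 1 of the 4 fits without 1 embryo, that without day 14 replicate 2.

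Genes of the cell cycle were called at a share near that of all tested genes (15.4%). In the S phase list 2 of 18 tested were higher in E-AM, 1 in TE and 15 were not called (median 0.52), and in the G2 and M phase list 3 of 19 were higher in E-AM, none in TE and 16 were not called (median 1.21). MCM3 and MCM5, parts of the replicative helicase, differed by 1.19 ± 0.36 and 1.15 ± 0.37, RRM2, which makes deoxynucleotides, by -1.02 ± 0.34 and BUB1B of the spindle checkpoint by 1.96 ± 0.64. Adjusted p was 0.0257, 0.037, 0.0455 and 0.0415. Each of these 4 calls held in 1 of the 4 fits without 1 embryo, that without day 12 replicate 1 for MCM3, day 14 replicate 2 for MCM5, day 14 replicate 4 for RRM2 and day 12 replicate 2 for BUB1B. The other called members were CENPF (1.21) and UBE2C (1.79), whose calls held in the fit without day 12 replicate 2 and in none of the other 3 fits without 1 embryo.

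Markers of other cell types were checked in the same sums. Of 15 EXMC markers, 0 were higher in E-AM and 1 in TE of 8 tested, and their summed level was 40.9 to 431 CPM in E-AM and 114 to 772 in TE. HGF was that 1 gene, at 78.3, 29.8, 3.20 and 121 CPM in TE and 17.1, 17.1, 0 and 2.86 in E-AM, far below its 1344 to 3553 CPM in EXMC, and its call (-2.81 ± 0.89, adjusted p = 0.0361) was lost without day 12 replicate 1 or day 14 replicate 4. Of 14 markers of visceral and yolk sac endoderm, 3 were tested and none was called, with summed levels of 17.1 to 106 CPM in E-AM and 31.9 to 113 in TE. TTR, APOB, FOXA1, FOXA2 and CER1 had no count in E-AM. Streak markers summed to 38.5 to 263 CPM in E-AM and 11.5 to 14.3 in TE. CDX1, a caudal homeobox gene, was the 1 of 12 that was tested, at 154, 25.7, 8.18 and 61.9 CPM in E-AM against 0, 0, 4.81 and 1.98 in TE (5.62 ± 1.40, adjusted p = 0.0163), a call lost without day 12 replicate 2, and MESP1, SNAI2, GSC, LHX1 and MSGN1 had no count in E-AM. The part of other cell types in the differences was not tested.

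Of 10 genes of the germ cell list, 6 were tested, 3 were higher in E-AM and none in TE (median 2.71). Over all tested genes 5.9% were higher in E-AM. NANOS3, an RNA regulator of germ cells, was at 17.1, 8.56, 16.4 and 24.8 CPM in E-AM and 0, 0, 0.534 and 0.660 in TE, and it had no count in any EPI or EXMC sum. Its E-AM sums held 35 counts and its TE sums 3, a ratio of 93.4 (95% exact interval 29.4 to 475). SOX15 was at 113, 38.5, 65.4 and 77.1 CPM in E-AM and 3.43, 4.32, 5.88 and 6.93 in TE (3.73 ± 0.68, adjusted p = 0.000585). PDPN, a membrane glycoprotein, reached 123, 265, 114 and 226 CPM in E-AM against 3.68, 4.54, 12.8 and 32.4 (4.13 ± 0.58, adjusted p = 4.07e-05), at a level like that of EPI (128 to 284). PRDM1, which defines primate germ cells, had no count in E-AM, and SOX17, the other defining factor, was too low to be tested.

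The genes with the largest differences were listed over the whole table. On the E-AM side these were TFAP2B, TNFSF8, FCGR2B, COL2A1, ACTC1, FABP7, CDX2, AMER2, EFHD1 and SLC18B1. TNFSF8, a tumour necrosis factor ligand, had 51 counts in E-AM and 1 in TE, a ratio of 408 (95% exact interval 70.1 to 16439.7). COL2A1, the chain of type II collagen, had 57 against 3 (152, 49.5 to 759), and stood at 99.1, 51.3, 24.5 and 12.4 CPM in the 4 E-AM sums and at 0 to 1.06 in EPI. ACTC1, cardiac muscle actin, was at 54.7, 17.1, 98.1 and 375 CPM in E-AM and 0.491, 0, 3.74 and 0 in TE, highest in day 14 replicate 4 (7.02 ± 0.94, adjusted p = 0.000106). EFHD1, a calcium-binding protein, was at 88.8, 235, 147 and 24.8 CPM against 0.491, 0.432, 3.20 and 0.990 (6.50 ± 0.77, adjusted p = 4.96e-06).

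All 10 genes at the TE end had no count in E-AM, so each fold is a lower bound against 3 counts in the pooled E-AM sums, of which day 14 replicate 4 gave the most counts. ACKR2, a scavenger of chemokines, stood at 40.2, 40.0, 88.7 and 107 CPM in TE and was at least 35.0-fold higher there. ANGPT4, an angiopoietin, was at 6.87, 15.4, 49.7 and 65.7 CPM in TE, higher in both day 14 sums than in the day 12 sums, and at least 16.3-fold higher. IL1R2, the decoy receptor of interleukin 1, was at 45.9, 36.3, 23.0 and 50.2 CPM and at least 22.9-fold higher. CCDC197, SH3TC2, SBSN, TMPRSS11E, DHRS9, SLC19A1 and SHROOM4 completed the list, with bounds from 12.4-fold for SHROOM4 to 32.0-fold for CCDC197.

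Patterns most like those of the markers were looked up by Pearson's r of log2 CPM over the 8 sums, which share embryos and types. For ISL1 these were WBSCR17 (0.99), NAP1L3 (0.99), HDAC2 (0.98), CELF2 (0.98) and NANOS3 (0.98). For GCM1 they were TOP1 (0.99), APBB1IP, NID1, TMEM80 and ZCCHC6 (0.98 each).

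Whether the difference between the types was the same at both days was tested with a day by type term, added after the data were seen. Each day had 2 embryos, so the p-values of this term lean on a spread estimated over many genes. They measure little of the spread between embryos of a day. A fit without 1 embryo leaves a single embryo at day 12 or at day 14. It was called for 211 of the 9973 genes (2.12%), and 1195 had an unadjusted p under 0.05. The E-AM minus TE difference was lower at day 14 for 161 of the 211 and higher for 50, and 160 of the 211 had a higher mean TE level at day 14 than at day 12. Without the embryo block the count was 55, without day 12 replicate 1 it was 131, without day 12 replicate 2 it was 111, with thinned counts 59 and with limma 19. KRT8, KRT18, SPP1, WFDC2 and CD9 kept their call in each of the 10 settings run.

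KRT18 stood at 2406, 2281, 1521 and 1486 CPM in E-AM and 785, 1105, 2093 and 2138 in TE. E-AM was thus the higher type in both day 12 embryos and the lower one in both day 14 embryos, and the day 14 difference minus the day 12 difference was -1.93 ± 0.32 (adjusted p = 1.87e-05). KRT8 behaved alike, at 2108, 2246, 1087 and 858 CPM in E-AM and 986, 1117, 1619 and 1294 in TE (-1.74 ± 0.33, adjusted p = 0.000217). TFAP2C also switched sides, with embryo differences of 0.37, 1.00, -2.59 and -2.47 on the log2 scale (-3.33 ± 0.73, adjusted p = 0.0025), a call that was lost without day 12 replicate 2. WFDC2, a secreted protease inhibitor, stood at 622, 209.7, 204 and 158 CPM in E-AM and 46.9, 45.8, 470.0 and 474 in TE (-4.51 ± 0.54, adjusted p = 1.47e-09). It had a count in 66 of 98 TE cells at day 12 and 30 of 31 at day 14, and its median in those cells was 36.0 and 413 CPM.

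**Figure D5:**
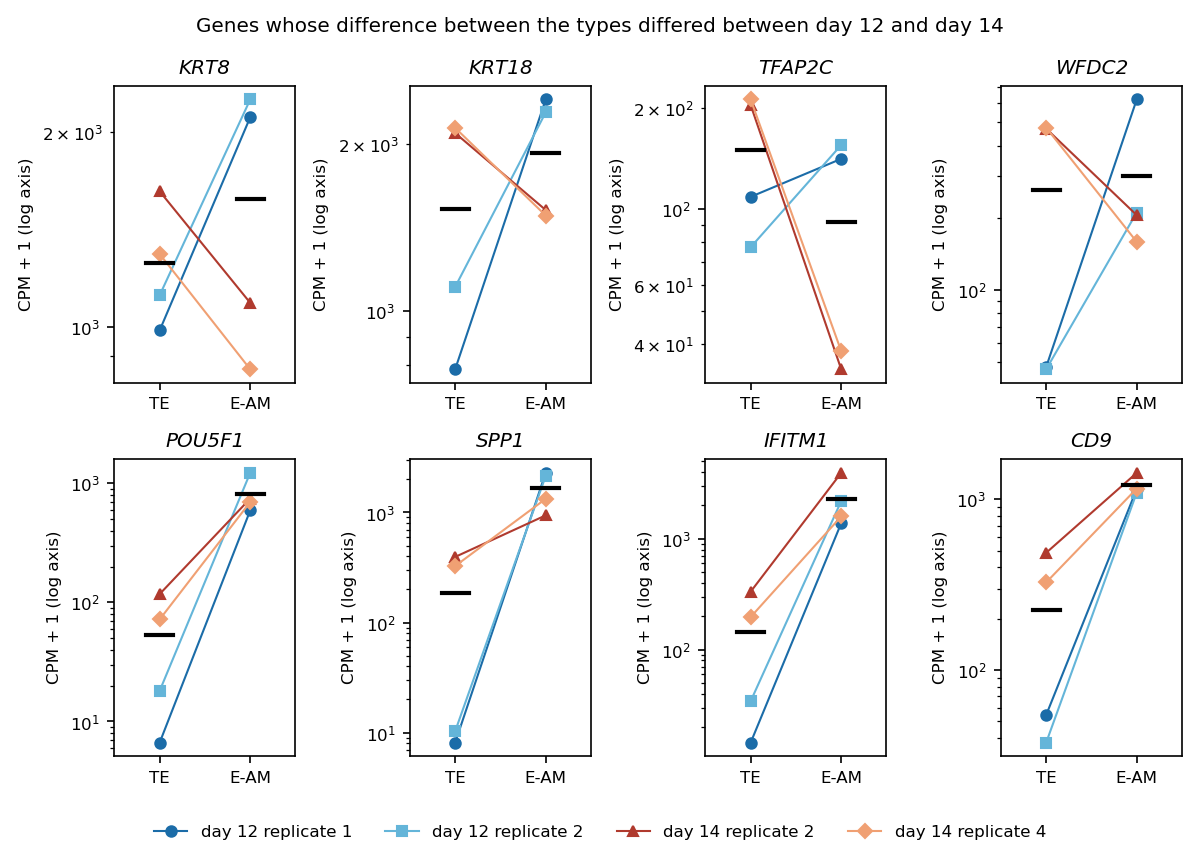
Levels of 8 genes in the TE and E-AM sums (CPM + 1, log axis), with blue lines for the 2 day 12 embryos, red and orange lines for the 2 day 14 embryos and black bars at the arithmetic mean of 4 embryos. KRT8, KRT18, TFAP2C and WFDC2 slope up at day 12 and down at day 14, and POU5F1, SPP1, IFITM1 and CD9 slope up at both days but from a higher TE level at day 14.

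POU5F1, IFITM1, SPP1 and CD9, picked after their day differences were seen, were higher in E-AM in all 4 embryos but by less at day 14. None of them was called in the comparison of the types over the 4 embryos. There IFITM1 differed by 4.73 ± 0.98, SPP1 by 4.71 ± 2.46 and CD9 by 3.11 ± 0.86 (edgeR, adjusted p = 0.0562, 0.353 and 0.0936). POU5F1 in TE was at 5.64, 17.1, 116 and 71.0 CPM, and the difference between the types fell (-3.51 ± 0.46, adjusted p = 3.41e-08). IFITM1, a membrane protein of germ cells and epiblast whose family holds near copies, was at 13.5, 33.3, 332 and 196 CPM in TE and 1380.5, 2186, 3932 and 1590.0 in E-AM (-3.15 ± 0.36, adjusted p = 2.14e-10). SPP1, the secreted phosphoprotein osteopontin, was at 7.11, 9.30, 394 and 325 CPM in TE and 2289, 2148, 940.2 and 1330.1 in E-AM (-6.52 ± 0.40, adjusted p = 1.40e-24). CD9, a tetraspanin, was at 53.5, 36.5, 486 and 325 CPM in TE and 1148, 1095, 1431 and 1157 in E-AM (-3.07 ± 0.39, adjusted p = 9.12e-09). In each of these 4 genes the TE sums of day 14 were above those of day 12, whereas the E-AM sums of POU5F1 and IFITM1 overlapped between the days. DPPA5 (-3.48 ± 0.64, adjusted p = 0.000145) and NANOG (-6.87 ± 1.54, adjusted p = 0.00337) moved the same way, and the NANOG call was lost without day 12 replicate 1.

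Some members of the G2 and M phase list differed by day in the opposite direction, with a higher E-AM minus TE difference at day 14. The day by type term was called for 5 of its 19 tested members, against 2.12% of all genes, and it was looked up after the data were seen. CCNB1, the cyclin that drives entry into mitosis, stood at 345, 72.7, 245 and 218 CPM in E-AM and 359, 318, 109 and 67.3 in TE (2.32 ± 0.59, adjusted p = 0.0163). AURKA, a kinase of the spindle poles, was at 232, 38.5, 253 and 167 CPM in E-AM and 118, 156, 47.0 and 23.4 in TE (2.83 ± 0.76, adjusted p = 0.0281). NUSAP1, a spindle protein, changed by 2.20 ± 0.60 (adjusted p = 0.0444), UBE2C, a ubiquitin-conjugating enzyme of mitotic exit, by 2.51 ± 0.70 (adjusted p = 0.0317) and CENPF, a kinetochore protein, by 1.65 ± 0.46 (adjusted p = 0.0313). In TE both day 14 sums of CCNB1, AURKA, NUSAP1 and CENPF were below both day 12 sums. These 5 calls were lost with DESeq2, with limma, after thinning, without the embryo block and without day 12 replicate 2.

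The make-up of the embryos differed between the days as well. EPI cells were 13.4% and 13.8% of the picked cells in the day 12 embryos and 62.4% and 50.6% in the day 14 embryos. TE held POU5F1 at 0.568% and 1.74% of the EPI level of the same embryo at day 12, and at 15.4% and 10.1% at day 14. For IFITM1 these shares were 0.714% and 1.47% against 17.3% and 11.2%, and for CD9 10.4% and 6.28% against 65.5% and 38.3%. SPP1 did not show this, at 6.27% and 3.10% against 6.36% and 12.7%, and its EPI level was 114 and 299 CPM at day 12 and 6185 and 2561 at day 14. The part of the EPI share in the day differences was not tested. For WFDC2 the day 14 TE level was 1232% and 1427% of that of EPI. A count of POU5F1 was found in 47 of 98 TE cells at day 12 and 25 of 31 at day 14, with a highest value of 339 and 563 CPM, against a lowest value of 204 CPM in the day 14 EPI cells.

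The 3 embryos with 2 E-AM cells each took no part in the fit. ISL1 stood there at 77.6, 168 and 79.2 CPM in E-AM and 10.7, 15.2 and 12.6 in TE (day 12 replicate 5 and day 13 replicates 1 and 2), and CDX2 at 194, 205 and 39.6 against 1.34, 6.62 and 5.30. HAND1 was at 698, 1474 and 753 CPM in E-AM and 6.71, 107 and 61.2 in TE, and BMP4 at 284, 37.3 and 277 against 6.71, 20.6 and 3.67. On the TE side GCM1 was at 325, 280.0 and 310.4 CPM in TE and 0, 18.7 and 0 in E-AM. These 5 genes had the direction of the comparison in 3 of 3 embryos, and TFAP2B had it in 2 of 3. CGA was also higher in TE in 3 of 3, at 5670, 8925 and 6616 CPM against 142, 3115 and 1703 in E-AM. TFAP2A, which was not called, had the direction in 1 of 3, at 90.5, 578 and 475 CPM in E-AM and 164, 149.6 and 257 in TE. TNFSF8, NANOS3, CRABP1 and LAMA3 had it in 0 of 3, with no count in these E-AM sums. UBE2C also had it in 0 of 3, at 25.9, 0 and 0 CPM in E-AM and 45.6, 61.5 and 48.9 in TE. ADM, SLC2A1 and DNMT3B had it in 1 of 3, although their calls held in all 14 settings. ADM was at 0, 74.6 and 39.6 CPM in E-AM and 46.95, 58.04 and 19.99 in TE. SLC2A1 was at 439.6, 1025.9 and 911 CPM in E-AM and 940.3, 761 and 709 in TE. DNMT3B was at 103, 112 and 198 CPM in E-AM and 114, 141 and 55.5 in TE. GATA2 was at 223, 378 and 581 CPM in TE and 0, 131 and 555 in E-AM, so that the last embryo showed nearly equal levels. KRT18 was higher in E-AM in 3 of 3, at 2082, 1194 and 2020.2 CPM against 669, 680.1 and 641. Over all genes, the means of these 3 embryos had the direction of the comparison for 1385 of the 1531 called genes (90.5%) and 6805 of the 9973 tested (68.2%). The annotation was made on all cells together, so these cells are further embryos but not an independent naming.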

How the data were processed

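Single picked cells of cynomolgus embryos were read at the 3′ end, and the authors deposited their counts as a table of 30792 genes by 1453 cells of whole numbers. A further table gives each cell's day and type. The aligner STAR is named, per the submitters' processing notes. Not given in the sources used here are its version, the build, the counter, the use of strand and the collapse of copies, so intervals cover counting error only and near-identical or antisense genes are uncertain.

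Counts were summed per embryo and annotated type. Genes were kept by filterByExpr, scaled by TMM and tested in edgeR 4.0.16 (R 4.3.3, robust quasi-likelihood fit) with type and embryo in the model. The pairing comes from the embryo, which both sums share. DESeq2 1.42.0 and limma 3.58.1 were alternatives. The test was checked on simulated data. It called 2 of 97 genes changed by 1 on the log2 scale and 30 of 88 changed by 2. Of 9238 unchanged genes it called 0. A gene that was not called may thus still differ between the types. CPM are counts per 1e6 of a sum's total. Genes with 1 to 3 counts in a pooled type got a ratio with an exact 95% interval, and genes with 0 a bound against 3 counts. Depth ranged from 4000 to 441618 counts per cell in the 2 types.

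The members and lists were chosen with earlier results of these data known. Named were the 4 markers, up to 6 called members per list (same sign in every embryo, mean of at least 10 CPM) with its defining members that were not called, and the 10 largest differences each way (at least 20 CPM). GATA2, GATA3, PPARG, CYP11A1, PGF, LHB, MFSD2A, SALL4, DNMT3B, LIN28B, SLC2A1, FN1, HAS2, CXCL12 and the members given by a bare difference were named after their values were seen, as were the genes of the day differences. Of 16890 gene names with the prefix LOC, 3273 were given a symbol through the RefSeq table of assembly T2T-MFA8v1.1. Among genes in the text these are HOPX, ERVFRD-1, MMP2, CXADR, PERP, IGF2, FABP7, EFHD1, CCDC197, GATA2, CYP11A1, IFITM1 and CD9. Another 14 names had become dates. Promoter sequences were not analysed here. No pair of cells had identical values. The values of some list members are not reported here, although the counts over their lists include them.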

Additional observations from a re-analysis of the deposited data

Results flagged for a closer look

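In 15 of the 255 sets of 4 embryos that were checked, 1 embryo lay far from the other 3, where chance gives about 1 in 20. In E-AM these were CGA at 1348 CPM, DLX6 at 38.5, CDH5 at 25.7 and MFSD2A at 12.8 in day 12 replicate 2, TFCP2L1 at 64.9 and WFDC2 at 622 in day 12 replicate 1, SLC2A1 at 1145 in day 14 replicate 2, and DLX5 at 47.6, HTRA1 at 19.99 and KRT10 at 62.8 in day 14 replicate 4. In TE they were CLDN6 at 105, IGF2 at 624 and CXCL12 at 34.7 CPM in day 14 replicate 2, and BMP4 at 34.3 and PERP at 276 in day 14 replicate 4.

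The difference between the types itself differed between day 14 and day 12 for 28 of the genes given with values (edgeR, adjusted p under 0.05 in the day by type test), 23 of them towards a lower E-AM minus TE difference at day 14 and 5 towards a higher one. The lower changes were -6.52 for SPP1, -4.51 for WFDC2, -3.51 for POU5F1, -3.48 for DPPA5, -3.15 for IFITM1, -3.07 for CD9, -1.93 for KRT18 and -1.74 for KRT8 on the log2 scale, and each of these kept its call in the 4 fits without 1 embryo. Less steady were NANOG at -6.87 and TFAP2C at -3.33, called in 3 of those 4 fits. CXCL12 at -3.65, GJA1 at -2.53, MMP2 at -1.63, SNRPN at -2.45, CGA at -1.08 and TFCP2L1 at -8.65 were called in 2 of 4. GATA3 at -2.15, FABP3 at -3.55, FOLR1 at -8.10, LAMA1 at -3.99, MFSD2A at -6.97 and ID3 at -1.62 were called in 1 of 4, and CDX1 at -6.93 in none. The higher changes were 2.20 for NUSAP1, called in 3 of 4, 2.32 for CCNB1, 2.83 for AURKA and 1.65 for CENPF, called in 2, and 2.51 for UBE2C, called in 1. TFCP2L1 and FOLR1 had no count in the day 14 E-AM sums, so the size of their change depends on the prior count. With 2 embryos per day, each fit without 1 embryo left a single embryo at a day. Calls kept in those fits are thus a weak check.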

How the results depend on the processing

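Of 127 called genes followed across the 14 settings, 86 kept the call in each setting that tested them, 92 kept it in each fit without 1 embryo and none changed direction. The 1531 calls became 2391 with EPI sums in the fit (963 higher in E-AM, 1428 in TE) and 999 with counts thinned to equal totals (520 higher in TE). DESeq2 called 889 genes higher in E-AM, and without a filter on low counts 1532 were higher in TE. The fits without 1 embryo gave 987 to 1266 calls, with 428 to 603 higher in E-AM and 553 to 780 in TE, the lowest totals coming without day 14 replicate 4, whose E-AM sum was the deepest. With no replicate block (no embryo pairing) 1611 genes were called, of which 1368 were among the 1531, and the day difference was called for 55 genes in place of 211. Calls lost that way were those of BUB1B, DLX5, DLX6, DPPA4, FN1, FST, GRHL1, HGF, LIN28A, MFSD2A, PEG10, RRM2, SFRP2, SNRPN, TFCP2L1 and UBE2C. The day difference had 59 calls after thinning, 19 with limma and 111 to 211 in the fits without 1 embryo. At least 5 cells of each type left the day 12 embryos alone, with 1549 calls, and at least 2 cells gave 7 embryos and 1665 calls. Adding day 11 changed nothing, as no day 11 embryo met the rule. The day difference was not run with 5 or 2 cells or with EPI.

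Directions that turned belonged to genes that were not called, and the cause was not tested. CCNB1 was -0.96 with at least 5 cells, -0.38 with at least 2 and -0.075 without a filter, AURKA was -0.29 with at least 5 cells, TFAP2C 0.69 with at least 5 cells and TBX3 0.26 with at least 2. ID3 was 0.75 with at least 5 cells, 0.13 with at least 2 and 0.18 after thinning. Over the fits without 1 embryo, TFAP2A ran from -0.94 to 0.030, ID3 from -0.35 to 0.34, CCNB1 from -0.25 to 0.88, KRT8 from -0.14 to 0.56, KRT18 from -0.070 to 0.78, KRT19 from -0.16 to 0.22 and WFDC2 from -0.41 to 1.78. The developmental stage labels alone, which equal the fit without day 12 replicate 1, gave -0.14 for KRT8, -0.070 for KRT18, -0.16 for KRT19 and -0.41 for WFDC2. KRT8 was -0.11 and KRT19 -0.27 without a filter, and KRT19 was -0.10 with EPI in the fit. Depth limits what could be seen in E-AM, where 3 of 4 sums held 122318 to 292659 counts.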

Other observations

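A pair of secreted or surface-coat genes that no list held separated E-AM from TE widely, and both were picked after their values were seen. HAS2, a synthase of the matrix sugar hyaluronan, stood at 472, 321, 736 and 534 CPM in E-AM and 4.17, 2.16, 17.6 and 16.2 in TE. Every E-AM sum was above every TE sum (5.97 ± 0.44, adjusted p = 1.14e-08 by edgeR). EPI had 127 to 195 CPM and EXMC 104 to 191, while E-Gast, at 322 to 404, and the 1 VE/YE sum, at 431, lay within the E-AM range. CXCL12, the chemokine that binds CXCR4, was at 557, 231, 359.7 and 162 CPM in E-AM and 1.23, 1.95, 34.7 and 4.29 in TE. Its groups did not overlap (5.83 ± 0.98, adjusted p = 0.00745) and the call was lost without day 14 replicate 4 although the difference was 6.20 there. EXMC had 0 to 28.3 CPM, whereas EPI, at 147 to 190.3, and E-Gast, at 37.8 to 213, overlapped E-AM.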
